A study of Mus musculus with 2 samples.

Results

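The apolipoproteins described here are 10 genes of mouse liver, taken by name from GENCODE M21 and matched by Ensembl identifier to the deposited counts: Apoa1, Apoa2, Apoa4, Apoa5, Apob, Apoc1, Apoc2, Apoc3, Apoe and Apom. All 10 were found among the 55421 genes listed, and all 10 passed the level filter of a mean of at least 50 counts, which left 12064 genes to compare. Liver RNA was sequenced from Rcrin knockout mice, which carried a conditional knockout of Rcrin, and from WT mice, which carried floxed Rcrin alleles. There was 1 library per genotype, both labelled with a time of 8 weeks. The labels name no Cre driver, sex, strain, feeding state or number of mice behind a library, and the level of Rcrin itself, which would check them, was not analysed here. The knockout library held 63587567 counts and the WT library 65121596. A single library per genotype gives no spread between mice, so no test was run, and each difference below is one between these 2 libraries. The intervals are exact 95% intervals for counting error alone, and reads copied by PCR make the true counting error larger.

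Apolipoproteins are the protein part of the particles that carry lipid in blood, and the liver makes most of them. Apob wraps very low density lipoprotein (VLDL), with 1 molecule per particle, while Apoa1 and Apoa2 are the main proteins of high density lipoprotein (HDL). The smaller proteins move between particles and steer their fate: Apoe is a ligand for hepatic receptors, Apoc2 activates lipoprotein lipase, and Apoc3 and Apoc1 slow the clearance of triglyceride-rich particles. Most of these genes are written mainly by hepatocytes. All 12 hepatocyte markers checked, among them Alb, Ttr and Cps1, had counts in both libraries.

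Apoa2 was the member farthest above WT in the knockout library and Apoa4 the one farthest below, and these were the 2 members past the limit of 2-fold. Their promoters are shown because their start sites feed the 2 transcripts on which the comparison turns. Each runs 5′ to 3′ from 250 bases before to 50 bases after a RefSeq start on GRCm38.p6, at chr1:171224804-171225103 for Apoa2 and chr9:46240594-46240893 for Apoa4, both on the plus strand. RefSeq lists 2 windows for Apoa2. The one shown starts transcription where GENCODE starts the gene, and the other, at chr1:171221314-171221613, lies upstream of the annotated gene and is not printed; it held AGGTCA on the minus strand at base -238 and no other match. Capitals mark matches to 5 motifs searched on both strands.
Apoa2: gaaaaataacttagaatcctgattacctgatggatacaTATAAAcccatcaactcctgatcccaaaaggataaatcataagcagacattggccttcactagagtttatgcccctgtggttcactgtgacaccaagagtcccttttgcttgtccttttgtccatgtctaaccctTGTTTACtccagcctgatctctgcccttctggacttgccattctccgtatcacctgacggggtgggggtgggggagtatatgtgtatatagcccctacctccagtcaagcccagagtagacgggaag
Apoa4: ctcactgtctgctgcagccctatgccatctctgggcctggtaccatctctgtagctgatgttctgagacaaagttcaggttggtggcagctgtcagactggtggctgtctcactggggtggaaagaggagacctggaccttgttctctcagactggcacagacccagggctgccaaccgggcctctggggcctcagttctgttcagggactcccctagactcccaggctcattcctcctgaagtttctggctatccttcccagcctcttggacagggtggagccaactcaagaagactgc
The nuclear receptor core was searched as AGGTCA and the HNF4-type core as CAAAGTC. The E-box was searched as CACGTG and the TATA motif as TATAAA. The forkhead core was searched as TGTTTAC. No matches of different motifs overlapped in these windows. The Apoa2 window held TATAAA starting at base -212 and TGTTTAC at base -77, and the Apoa4 window held none of the 5. Among 32851 promoter windows of the same length, the TATA motif stood in 13.6% and the forkhead core in 3.65%. The nuclear receptor core stood in 16.3%, the HNF4-type core in 4.44% and the E-box in 7.15%. The RefSeq start of Apoa4 lay 148 bases downstream of the start of the gene in GENCODE. Most of the Apoa4 window thus lay inside the gene as GENCODE annotates it, while most of the Apoa2 window shown lay before its gene. The lack of matches at Apoa4 is therefore not set against a like stretch of Apoa2. Of the 10 members 8 had a window in the RefSeq table, and Apoc1 and Apoc3 are named only.

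The third sequence is printed because it sets how Apoc2 could be counted. It is the coding sequence of Apoc2, 291 bases from chr7:19671764-19673601 on the minus strand of GRCm38, taken from the GENCODE M21 transcripts, with the middle of its 3 coding exons in capitals.
Apoc2: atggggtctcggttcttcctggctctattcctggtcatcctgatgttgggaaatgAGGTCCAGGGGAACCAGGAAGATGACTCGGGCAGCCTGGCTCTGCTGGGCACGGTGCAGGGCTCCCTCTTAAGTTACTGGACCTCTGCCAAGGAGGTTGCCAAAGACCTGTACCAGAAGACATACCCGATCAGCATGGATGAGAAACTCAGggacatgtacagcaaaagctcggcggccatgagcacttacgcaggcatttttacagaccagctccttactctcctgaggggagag
The whole run stood in 5 transcripts of 2 genes, the 3 of Apoc2 and both of Gm44805. Gm44805 is annotated on the same strand from the first exon of Apoc4 into the exons of Apoc2. Of 813 exonic bases of Apoc2, 646 (79.5%) were also exonic in Gm44805 and 167 were not.

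Apolipoprotein transcripts were among the most abundant in both libraries. Together the 10 genes took 6.13% of the knockout counts (interval 6.13% to 6.14%) and 4.97% of the WT counts (4.97% to 4.98%). Apoe, Apoa1 and Apoa2 made up most of this, with 5.51% of knockout counts and 4.31% of WT counts. The other 7 took 0.623% of knockout counts and 0.664% of WT counts. Without Apoa2 the 9 remaining genes held 4.41% of knockout counts and 4.34% of WT counts, so most of the difference in the summed share lay in Apoa2. Albumin (Alb), the highest gene of both libraries, took 8.81% of knockout counts and 5.14% of WT counts.

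**Figure D1:**
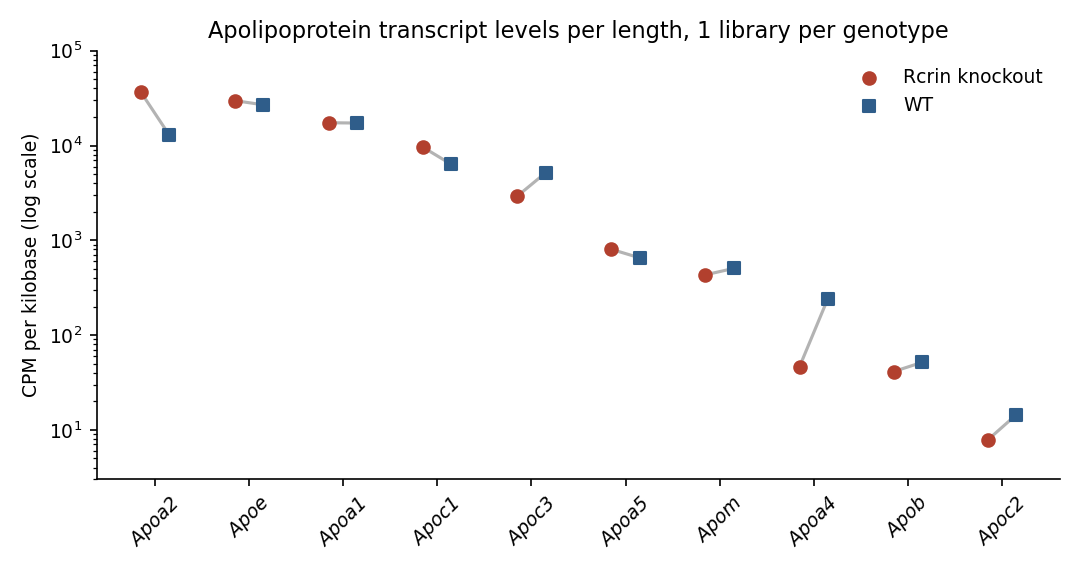
Level of each apolipoprotein transcript in the Rcrin knockout library (red circles) and the WT library (blue squares), as CPM per kilobase of median transcript length on a log axis, ordered by the knockout level; grey lines join the 2 libraries. Apoa2 stood at 36499 in the knockout library and 12944 in the WT library, and Apoa4 at 46.5 and 241.

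Per length, the 10 genes covered a wide range. Levels were set as CPM after TMM scaling, divided by the median transcript length in kilobases. In the knockout library the order was Apoa2 (36499), Apoe (29737), Apoa1 (17390), Apoc1 (9557), Apoc3 (2922), Apoa5 (803), Apom (432), Apoa4 (46.5), Apob (41.2) and Apoc2 (7.81). In the WT library Apoe came first (26891), followed by Apoa1 (17258) and Apoa2 (12944), and the places below these were the same as in the knockout library. Apoa2 thus stood in place 1 of the members in the knockout library and in place 3 in the WT library. With the longest transcript in place of the median length, Apoa5 (195 in the knockout library, 159 in WT) stood below Apom, and Apob came to 23.0 and 28.7. In WT this put Apoa4 (241) above Apoa5 as well. Neighbouring places cannot be set against a spread between mice.

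By the limit of 2-fold, 1 of the 10 members was higher in the knockout library, against 8.45% of all genes compared, and 1 was lower, against 8.61% of all. In either direction this made 2 of 10, against 17.1% of all, close to the background. A mean of at least 10000 counts, which 9 of the members had, was reached by 836 genes, of which 7.42% were higher and 6.58% lower, 14.0% together. At 1.5-fold 2 members were higher, against 19.0% of all genes compared, and 3 lower, against 18.8%. Of these 3, 1 was Apoc2, whose counts are no measure of its whole transcript. Summed with Gm44805 it stood at -1.43, past 2-fold. With Apoc4 added as well, which then held most of the summed counts, it stood at 0.59. The counts of lower members at 1.5-fold and 2-fold thus depend on how Apoc2 is counted. At 4-fold 0 were higher, against 2.51%, and 1 was lower, against 2.80%. The median log2 ratio of the members, knockout over WT, was -0.11, beside -0.01 over all 12064 genes. The median size of the log2 ratio was 0.46 for the members and 0.44 for all genes. The sign of the members' median was not stable: it was 0.11 with a trend on GC content removed and 0.01 without Apoc2. With the sum of Apoc2 and Gm44805 in place of Apoc2 the median stays at -0.11, because both values lie below it.

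**Figure D2:**
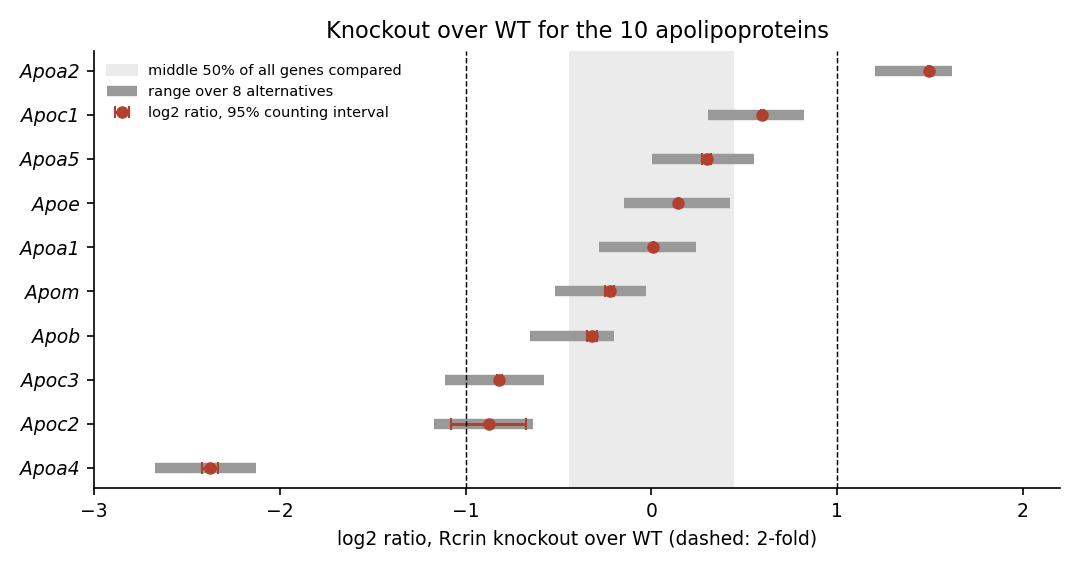
Log2 ratio of the Rcrin knockout library over the WT library for each apolipoprotein (red points, bars for the 95% counting interval), with the range over 8 alternative ways of scaling or correcting (grey bars). The pale band is the middle 50% of all genes compared and dashed lines mark 2-fold; Apoa2 at 1.496 and Apoa4 at -2.38 lie beyond the lines over their whole range.

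The HDL proteins parted from each other. Apoa1 (ENSMUSG00000032083, chromosome 9 from 46228580 to 46230466 on GRCm38, 4 exons), which accepts cholesterol from cells and activates Lcat, had 889217 counts in the knockout library and 936297 in WT. It ranked 8 of all genes in both libraries. Its log2 ratio was 0.01 (interval 0.01 to 0.02), and across 8 alternatives it lay from -0.28 to 0.24, above 0 in 4 of them. Apoa2 (ENSMUSG00000005681, chromosome 1 from 171225054 to 171226379, 4 exons), the smaller HDL protein, had 1096775 counts in the knockout library and 412681 in WT. It ranked 4 in the knockout library and 20 in WT, and was 2.82-fold higher in the knockout library (log2 ratio 1.496, interval 1.490 to 1.501). It stayed above 2-fold under all 8 alternatives, from 1.20 to 1.62. The count ratio of Apoa2 to Apoa1, which does not depend on scaling, was 1.23 in the knockout library and 0.441 in WT. Apoa2 supplied 28.1% of the apolipoprotein counts in the knockout library and 12.7% in WT. The genes on either side of Apoa2, named after their values were seen, lay within 2-fold: Tomm40l stood at a log2 ratio of 0.23 and Fcer1g at -0.60. Genes with few exons varied more between these libraries: among 77 genes with 4 exons and a mean of at least 10000 counts, 11.7% were higher by at least 2-fold and 7.79% lower, 19.5% together. Their median log2 ratio was 0.44. With the median of all compared genes with 4 exons subtracted, a wider set than these 77, the log2 ratio of Apoa2 was 1.42.

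Apom (ENSMUSG00000024391, chromosome 17 from 35128997 to 35132050, 6 exons), a lipocalin that carries sphingosine 1-phosphate on HDL, had 27351 counts in the knockout library and 33891 in WT. Its log2 ratio was -0.22 (interval -0.25 to -0.20), and it ranked 293 in the knockout library and 230 in WT. It lay below 0 under all 8 alternatives, from -0.52 to -0.03.

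Apoa4 (ENSMUSG00000032080, chromosome 9 from 46240696 to 46243459, 3 exons), made in gut and liver and carried on HDL, chylomicrons and VLDL, had 5270 counts in the knockout library and 29053 in WT. This was 5.20-fold lower in the knockout library, a log2 ratio of -2.38 (interval -2.42 to -2.34), and it ranked 1410 there and 272 in WT. Such a drop past 4-fold was seen in 2.80% of all genes compared. That share was not taken for genes with 3 exons alone. Apoa4 stayed past 4-fold lower under all 8 alternatives, from -2.67 to -2.13. It held 0.135% of the apolipoprotein counts in the knockout library and 0.897% in WT. Its exons overlap those of Gm47528 and Gm10680 on the opposite strand, 34.9% and 34.8% of its 1815 bases. The use of strand in counting is not given in the sources used here, so antisense reads cannot be told from its own. Gm47528 held only 42 counts in the knockout library and 99 in WT, and Gm10680 was listed at 0 in both. Among 39 genes with 3 exons and a mean of at least 10000 counts, 25.6% were lower by at least 2-fold and 15.4% higher, 41.0% together. The median of these 39 genes was 0.26. With the median of all compared genes with 3 exons subtracted, a wider set, the log2 ratio of Apoa4 was -2.41. That step removes a median and not a spread.

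Gut tissue also writes Apoa4, so enterocyte markers were read beside it. Their summed level was 32.2 CPM in the knockout library and 22.1 in WT, of which Fabp2, a fatty acid binding protein also singled out after its value was seen, made 30.7 and 20.9. The defining enterocyte genes Sis, Lct and Alpi, singled out after their values were seen, were listed at 0 in both libraries. Cebpa, from the list of transcription factors and named after its value was seen, was also listed at 0 in both. Whether a listed 0 means absence was not tested. Only 2 of the 10 markers, Fabp2 and Epcam, passed the level filter, and neither was past 2-fold. Epcam, like Chga and Muc2 of the same list, is not specific to enterocytes. In bulk tissue, fewer cells of a type and less RNA per cell cannot be told apart.

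Apoa5 (ENSMUSG00000032079, chromosome 9 from 46268633 to 46271919, 4 exons), a liver protein that promotes the hydrolysis of plasma triglyceride, had 30636 counts in the knockout library and 26437 in WT, a log2 ratio of 0.30 (interval 0.27 to 0.32). It ranked 259 in the knockout library and 305 in WT. Apoc3 (ENSMUSG00000032081, chromosome 9 from 46232933 to 46235636, 4 exons), which inhibits lipolysis and hepatic uptake of remnants, went the other way, with 82681 counts in the knockout library and 154670 in WT. It was 1.76-fold lower in the knockout library (log2 ratio -0.82, interval -0.83 to -0.81), and ranked 92 there and 49 in WT. It passed 2-fold lower under 1 of 8 alternatives, at -1.11 with the hepatocyte markers set to no change. There and below, this means that their median was set to a ratio of 1. The markers themselves ran from -0.93 to 1.17. The count ratio of Apoa5 to Apoc3, which act in opposite directions on triglyceride, was 0.371 in the knockout library and 0.171 in WT.

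These 4 genes lie within 43.3 kb of chromosome 9, yet their ratios spread over 2.68 log2 units. Apoa1 and Apoa5, at the ends, stood at 0.01 and 0.30. Apoc3 and Apoa4 between them stood at -0.82 and -2.38, and only Apoa4 was past 2-fold. The sum of the 4 took 1.58% of knockout counts and 1.76% of WT counts, a log2 ratio of -0.10, because Apoa1 outweighs the rest. The count ratio of Apoa4 to Apoa1 was 0.00593 in the knockout library and 0.0310 in WT. The genes next to the cluster, Sik3 (-0.50), Zpr1 (0.18) and Bud13 (-0.19), lay within 2-fold. Of 6 neighbours listed for the region, 1 was past 2-fold, against 17.1% of all genes compared. This was Sidt2, farther out and named after its value was seen, with 4093 counts in the knockout library and 11716 in WT (-1.43). Of 7 listed around the chromosome 7 cluster, 1 was past 2-fold, against the same 17.1%. This was Bcl3, named after its value was seen, with 1943 counts in the knockout library and 7843 in WT (-1.93).

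**Figure D3:**
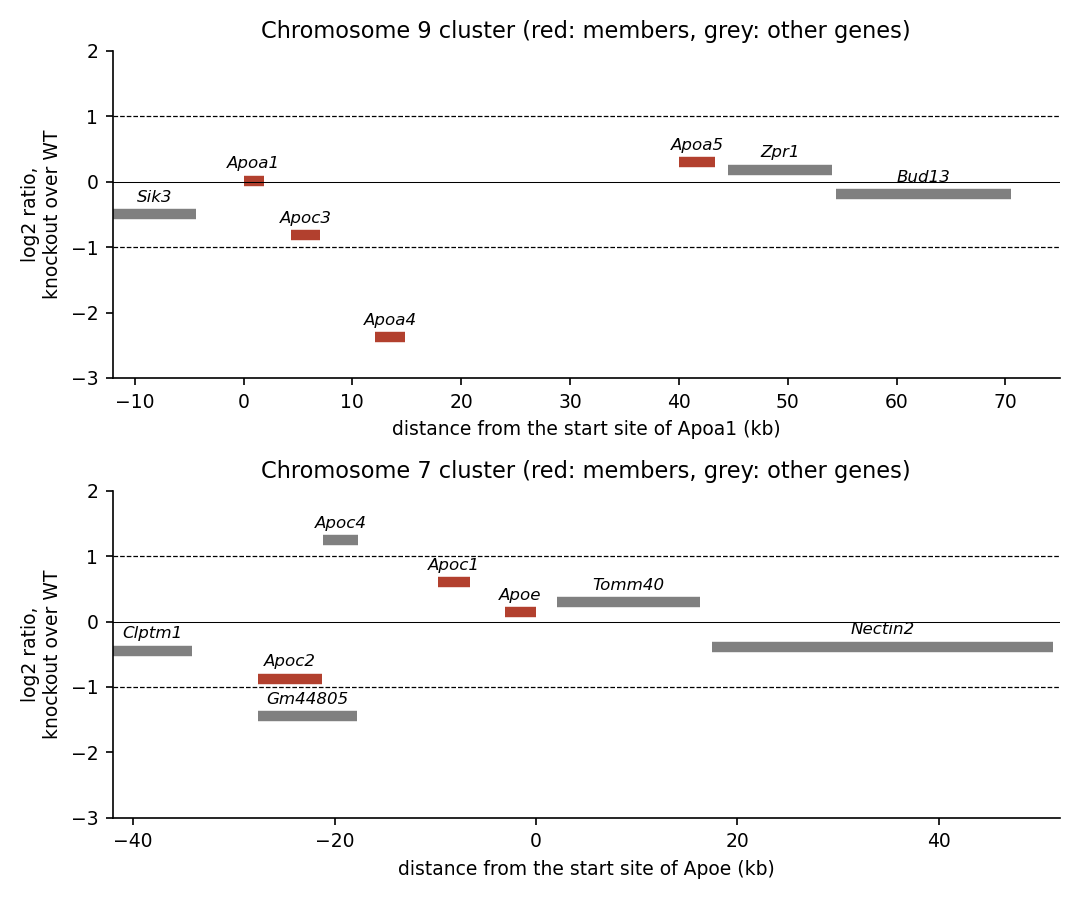
Log2 ratio of the Rcrin knockout library over WT (vertical axis) for genes of both apolipoprotein clusters, placed by distance in kilobases from the start site of Apoa1 or Apoe; members are red, other genes grey, and dashed lines mark 2-fold. Among the genes drawn, Apoa4 at -2.38 is the one past 2-fold on chromosome 9, and on chromosome 7 Apoc4 at 1.24 and Gm44805 at -1.45, whose exons overlap, lie on opposite sides.

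Apoe (ENSMUSG00000002985, chromosome 7 from 19696109 to 19699188, 5 exons), the ligand by which remnants bind hepatic receptors, was the member with most counts in both libraries: 1517785 in the knockout library, where it ranked 3, and 1456230 in WT, where it ranked 5. Its log2 ratio was 0.15 (interval 0.14 to 0.15), above 0 under 7 of 8 alternatives and -0.15 with the hepatocyte markers set to no change. Apoc1 (ENSMUSG00000040564, chromosome 7 from 19689481 to 19692660, 4 exons), which inhibits the uptake of remnants and activates Lcat, had 230163 counts in the knockout library and 161318 in WT. It was 1.51-fold higher in the knockout library (log2 ratio 0.60, interval 0.59 to 0.61), ranked 31 there and 47 in WT, and lay from 0.30 to 0.82 over the alternatives. Macrophages also write Apoe and Apoc1. Of 12 macrophage markers, 1 was higher and 2 were lower past 2-fold, against 8.45% and 8.61% of all genes compared. The markers had a median log2 ratio of -0.38 and a summed level of 1107 CPM in the knockout library and 1482 in WT. Their part in the Apoe and Apoc1 values was not tested.

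Apoc2 (ENSMUSG00000002992, chromosome 7 from 19671579 to 19677941, 5 exons), the cofactor of lipoprotein lipase, was far below the other members, with 308 counts in the knockout library and 600 in WT. It ranked 8335 in the knockout library and 6709 in WT, and its log2 ratio was -0.88 (interval -1.08 to -0.68). Gm44805, which holds the coding run of Apoc2 printed above, had 10289 counts in the knockout library and 29722 in WT (log2 ratio -1.45). Apoc4, the neighbour whose first exon Gm44805 also uses, had 89634 and 40180 counts (log2 ratio 1.24). How reads in shared exons were assigned is not given in the sources used here, so the 308 and 600 counts are no measure of the whole Apoc2 transcript. The 3 genes together had 100231 counts in the knockout library and 70502 in WT, a log2 ratio of 0.59 (interval 0.58 to 0.61), while Apoc2 and Gm44805 without Apoc4 gave -1.43. The sign of the sum thus turned on Apoc4, which held most of the counts of the 3 genes in both libraries. Of 2537 exonic bases of Apoc4, 119 (4.69%) were also exonic in Gm44805, against 79.5% for Apoc2. Apoc2, Gm44805 and their sum were each lower in the knockout library.

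Apob (ENSMUSG00000020609, chromosome 12 from 7977648 to 8016835, 29 exons), the structural protein of VLDL, had 20000 counts in the knockout library and 26475 in WT, a log2 ratio of -0.32 (interval -0.35 to -0.29). It ranked 415 in the knockout library and 303 in WT, and lay below 0 under all 8 alternatives, from -0.65 to -0.20. Its transcript is many times longer than those of the other members, yet it had fewer counts than Apom in both libraries. Apobec1, the deaminase that edits the Apob transcript and so shortens its product in mouse liver, named after its value was seen, had 670 counts in the knockout library and 752 in WT (log2 ratio -0.08). Its partner A1cf, named after its value was seen, had 704 and 427 (0.81). Edited and unedited Apob cannot be told apart in gene counts.

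With only 2 libraries, likeness to a member could be measured only as nearness in level. The nearest other gene in log2 CPM over both libraries was Ahsg for Apoa1, Ttr for Apoa2, Pdia4 for Apoa4, Adipor2 for Apoa5, Dcaf11 for Apob, H2-Q10 for Apoc1, Cd72 for Apoc2, C4b for Apoc3, Serpina1e for Apoe and H2-T23 for Apom. The distance ran from 0.00482 for Apoc2 to 0.60 for Apoa2, in log2 units.

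Among other apolipoproteins more were past 2-fold than among the 10 members. Several of those past 2-fold had far fewer counts than most members, but not all. Clu, named after its value was seen, had 104690 counts in the knockout library and 247130 in WT (log2 ratio -1.15). Apoc4 had 89634 and 40180 (1.24). Of 15 listed, 11 passed the level filter. Of these 11, 5 were higher and 3 lower past 2-fold, against 8.45% and 8.61% of all genes compared. The median log2 ratio was 0.69. One of the 5, Apool, named after its value was seen, stood at 1.00 and passed the limit in none of the 7 other settings tried. Apol7a (6075 counts in the knockout library, 783 in WT, log2 ratio 3.04) and Apof (1596 and 308, 2.46), known in humans as an inhibitor of lipid transfer, were highest. Saa4 (5934 and 54812, -3.12), the constitutive serum amyloid of HDL, and Apon (11619 and 34209, -1.47) were lowest. Apof and Apon have 2 exons. Apol9a and Apol9b, also named after their values were seen, are close paralogs whose reads can be split between them, and their sum had a log2 ratio of 0.02.

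**Figure D4:**
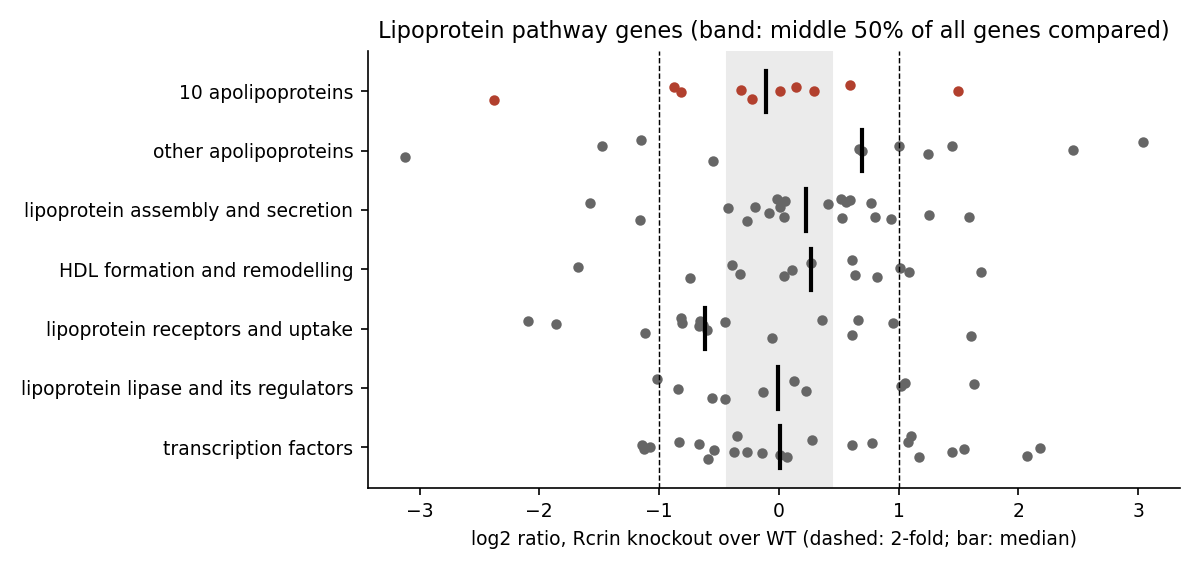
Log2 ratio of the Rcrin knockout library over WT for each compared gene of the 10 apolipoproteins (red) and of 6 lists of related genes (grey), with a black bar at each list's median. Dashed lines mark 2-fold and the band is the middle 50% of all genes compared; the receptor list has the lowest median, -0.62.

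Genes that build, remodel and clear lipoproteins were read from lists. For each list the background is all genes compared, of which 8.45% were higher and 8.61% lower past 2-fold. That background moved with the setting: 641 of 12064 genes were higher and 1781 lower with the hepatocyte markers set to no change. With the GC trend removed 906 of 12059 genes were higher and 987 lower. Of 20 genes of assembly and secretion, 2 were higher and 2 lower past 2-fold, with a median of 0.23 that became -0.06 with the hepatocyte markers set to no change. The highest were the small GTPase Arf1 (25357 counts in the knockout library, 8929 in WT, log2 ratio 1.59) and the carboxylesterase Ces1g (13095 and 5839, 1.25). Tm6sf2 (1402 and 4429, -1.57), which promotes the lipidation of VLDL, and Tmem41b (714 and 1691, -1.16), an endoplasmic reticulum scramblase, were lowest. Mttp, which loads lipid onto Apob, named after its value was seen, had 14475 and 10685 counts (0.52).

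Of 13 genes of HDL formation and remodelling compared, 3 were higher and 1 lower, with a median of 0.27. With the hepatocyte markers set to no change, 1 was higher and 2 were lower, and the median was -0.03. Lcat, which esterifies HDL cholesterol, had 17784 counts in the knockout library and 60149 in WT, 3.19-fold lower in the knockout library (log2 ratio -1.67). The phospholipid transfer protein Pltp followed at -0.74. The HDL-bound esterase Pon1 had 65041 counts in the knockout library and 21456 in WT (1.69), and hepatic lipase (Lipc) had 15938 and 7977 (1.08). Scarb1, the HDL receptor, and Abca1, which loads lipid onto Apoa1, both named after their values were seen, stood at 0.04 and 0.11.

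Receptor and uptake genes had the lowest median of the 6 lists, -0.62 over 16 genes, with 1 higher and 3 lower past 2-fold. With the hepatocyte markers set to no change 5 were lower, as were 1781 of all 12064 genes compared. The median ranged from -0.91 to -0.38 over 7 other settings. Cd36, a fatty acid translocase, had 1017 counts in the knockout library and 355 in WT (log2 ratio 1.60), and Vldlr had 92 and 50 (0.96).

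Among lipoprotein lipase and its regulators 3 of 10 genes were higher and 1 was lower, with a median of -0.00. With the GC trend removed 1 was higher and 0 lower, and with the hepatocyte markers set to no change 1 was higher and 2 were lower. The lipase inhibitors parted: Angptl8 had 3812 counts in the knockout library and 1304 in WT (log2 ratio 1.63), while Angptl4 had 4180 and 8990 (-1.02). Sel1l, which the maturation of the lipase needs, stood at -0.84. Of 23 transcription factors known to act on apolipoprotein genes, 7 were higher and 3 lower, with a median of 0.01 that became -0.28 with the hepatocyte markers set to no change. These counts became 4 and 4 in that setting, and 7 and 1 with the GC trend removed. The clock repressor Nr1d1 (765 and 179 counts, 2.18) and Nr5a2 (1253 and 316, 2.07) were highest. Rxra (5931 and 13896, -1.14) was lowest. Hnf4a, which acts on many apolipoprotein promoters and was named after its value was seen, had 16348 counts in the knockout library and 7694 in WT (1.17). Creb3l3, an activator of Apoa4 in mouse liver, also named after its value was seen, had 22462 and 30338 counts (-0.35).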

How the data were processed

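RNA of mouse liver gave 1 library per genotype, and libraries were grouped by the genotype label. Per the file headers, the authors deposited a count per Ensembl gene, and the values are whole numbers that were not normalized. The submitters' processing notes name GRCm38, also called mm10. The aligner, the counter, the annotation and the use of strand are not given in the sources used here. GENCODE M21, on the same build, supplied names, positions, exon numbers, lengths and GC content for 55154 of the 55421 genes listed. TMM factors were computed with edgeR 4.0.16 in R 4.3.3 (0.982 for the knockout, 1.02 for WT). Each log2 ratio is knockout over WT, with 0.5 reads added in proportion to library size, and genes were compared where both libraries averaged 50 counts or more. Higher and lower mean past 2-fold. No count test was run. Intervals of ratios are exact conditional (Clopper-Pearson) 95% intervals, and those of shares are exact binomial. Calculations were tested on simulated data. Promoter sequences came from RefSeq on GRCm38.p6.

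Named genes were the members, the 2 highest and 2 lowest of each list with counts in both libraries, genes adjoining the clusters, and each member's nearest gene in level; others are marked where they are named, except cell type markers and genes that overlap the exons of a member, which were also named with their values seen. Some genes that this rule names are not reported here. Members and lists were chosen with earlier results of these data known. Alternatives were size factors from DESeq2 1.42.0, scaling by total count, by TMM on genes with at least 3 exons or by the median of hepatocyte markers, 5 reads added, a GC trend (loess), centring by exon number or by level, other limits and filters, and the longest transcript as length. Of 10 stellate cell markers (median -0.30) 1 was lower and 0 higher past 2-fold, against 8.61% and 8.45% of all genes compared.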

Additional observations from a re-analysis of the deposited data

How the results depend on the processing

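The median log2 ratio of the 10 apolipoproteins, -0.11, was -0.16 with scaling by total count, -0.40 with the median of hepatocyte markers set to a ratio of 1, 0.11 with the GC trend removed, -0.14 after centring by exon number, -0.17 after centring by level and -0.21 as a mean. It was 0.011 without Apoc2 and 0.078 with the summed counts of Apoc2, Apoc4 and Gm44805 in its place, both chosen after seeing the data. Most of the counts in that sum were those of Apoc4. With the sum of Apoc2 and Gm44805 in place of Apoc2 the median stays at -0.11. The cause of the other shifts was not tested. Scaling on hepatocyte markers moved the median of all genes to -0.30, with 641 genes higher and 1781 lower past 2-fold against 1019 and 1039, and gave 3 members lower; under it the medians of the assembly list (-0.06), the HDL list (-0.03) and the transcription factor list (-0.28) turned sign. The last was also -0.04 by total count and -0.03 after centring by exon number, against 0.01. With the limit at 1.5-fold 2 members were higher (19.0% of all genes) and 3 lower (18.8%), Apoc2 among the lower, and at 4-fold 0 were higher (2.51%). The share of counts in the members became 6.73% (knockout) and 5.24% (WT) without albumin, and 6.29% and 5.11% over genes with at least 3 exons. No member past 2-fold changed sign under any alternative run. No paired analysis was possible because each genotype had 1 library. Apoc2 had the fewest counts and the widest counting interval of the members; how reads in its shared exons were assigned was not tested.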
